A study of Mus musculus with 14 samples.

Results

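To follow transcripts that shifted with the Atg14 genotype label in both Treg subsets, 5 genes were examined array by array. They are *Tmem181a*, its copies *Tmem181b-ps* and *Tmem181c-ps*, *Eps8l1* and *4930481A15Rik*. Each was read by 1 transcript cluster, the set of probes that reports 1 gene, among 22203 such clusters on the Clariom S mouse array. They were selected on the log2 differences between KO and control in these same arrays, because each differed in the same direction between KO and control cells in both subsets, so those genotype differences are given below as a description without a test.

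Regulatory T cells (Tregs) are CD4 T cells marked by the transcription factor Foxp3, which restrain immune responses. The cells came from mixed bone marrow chimeras, in which marrow from a CD45.2+ donor was combined in equal parts with CD45.1+ wild-type (WT) marrow and given to sublethally irradiated Rag1-/- mice, with 6 to 8 weeks for reconstitution. Control donors were Foxp3Cre Atg14+/fl, so that 1 allele could be deleted, and KO donors were Foxp3Cre Atg14 fl/fl. All donors of CD45.2+ cells therefore carried Foxp3-driven YFP-Cre, which acts in Foxp3-expressing cells, and the methods give 6 to 20 weeks as the age of Foxp3Cre Atg14 fl/fl mice used in the study. The background of every genetic model is given there as C57BL/6, with mice of both sexes used. Central Tregs (cTregs, CD44low CD62Lhigh) and effector Tregs (eTregs, CD44high CD62Llow) were sorted from these hosts, giving 4 control and 3 KO arrays for each subset. The source of the cells is given as spleen with peripheral lymph nodes in the series description and as spleen in the methods, which also state that some fl/fl mice carried a germline null Atg14 allele in some experiments.

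Tmem181 is a membrane protein with 7 transmembrane stretches and a GOLD domain, a fold found in proteins of the secretory pathway, and its human form is known as a host factor for a bacterial cytolethal distending toxin. RefSeq lists *Tmem181a* as protein-coding and the b and c copies as transcribed pseudogenes, all on chromosome 17. *Eps8l1*, on chromosome 7, encodes a relative of Eps8, an adaptor that joins growth factor receptors to the actin cytoskeleton through Abi1, Sos1 and the GTPase Rac. *4930481A15Rik*, on chromosome 19, is listed as a long noncoding RNA. Atg14, on chromosome 14, belongs to complex I of Vps34, a kinase that makes the lipid that starts autophagosome formation.

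Before these genes, the labels and the sort were checked. Values are log2 signals after robust multi-array averaging (RMA). *Atg14* read 9.26, 8.96, 8.64 and 8.89 in control cTregs and 9.24, 9.33 and 9.29 in KO cTregs. In eTregs it read 8.92, 9.01, 8.77 and 8.64 in controls and 9.15, 9.0 and 9.32 in KO arrays. The level was thus not lower in the arrays labelled KO, with KO minus control differences of 0.35 in cTregs and 0.32 in eTregs (exact two-sided permutation p = 0.0857 in each, where the smallest p that 35 splits allow is 0.0286). The paper reports that *Atg14* deletion was checked by quantitative PCR in Tregs sorted from Foxp3Cre Atg14 fl/fl mice. That check was separate from these arrays. Whether the *Atg14* probes lie in the deleted stretch was not examined, and "KO" below names the label. The effector markers *Cd44*, *Icos*, *Tigit* and *Klrg1* were higher in control eTregs than in control cTregs past the study threshold (absolute log2 change of 0.5 or more with unadjusted P below 0.05) in 4 of 4 cases, where 4.72% of all clusters passed. In the genotype contrasts 2.72% of all clusters passed in eTregs and 0.576% in cTregs. Of the marker lists for the contrast in eTregs, 6 of 8 macrophage genes, 4 of 6 dendritic cell genes and 1 of 5 CD8 and NK genes passed that threshold upward and 1 of 4 effector genes (*Tigit*) passed it downward, whereas in cTregs 1 of 5 CD8 and NK genes (*Klrd1*, lower) passed it. None of 6 Treg, 3 central, 4 B cell, 3 erythroid and 6 epithelial genes passed in either genotype contrast. KO eTreg 1 stood apart on the sort markers. Its summed linear signal of the effector genes was 5470 (8740 to 12100 in control eTregs) and that of the 3 central genes 22200 (17900 to 19100 in control eTregs).

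The Tmem181 transcripts formed the largest block among these genes and all 3 were lower under the KO label. *Tmem181a* read 11.20, 11.20, 11.32 and 11.16 in control cTregs, 10.40, 10.52 and 10.47 in KO cTregs, 11.43, 11.69, 11.70 and 11.65 in control eTregs, and 10.65, 10.74 and 10.46 in KO eTregs. The highest of the 6 KO values lay 0.42 below the lowest of the 8 control values, and no KO array of either subset reached a control array. The KO minus control difference was -1.0 in eTregs (SE 0.10, a 2.00-fold lower signal) and -0.76 in cTregs (SE 0.10, a 1.69-fold lower signal).

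*Tmem181b-ps*, the copy that lies between the others, read 11.70, 11.59, 11.84 and 11.73 in control cTregs and 11.90, 12.18, 12.05 and 11.98 in control eTregs. Its KO values were 10.42, 10.65 and 10.64 in cTregs and 10.88, 10.89 and 10.75 in eTregs. All KO arrays again lay below all control arrays. The gap between the KO and control arrays was 0.70, the widest of the 3 copies, and the differences were nearly equal in both subsets, at -1.19 in eTregs (SE 0.10, 2.28-fold lower) and -1.15 in cTregs (SE 0.10, 2.21-fold lower).

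*Tmem181c-ps* was the most variable copy between arrays. It read 9.96, 10.34, 10.38 and 10.25 in control cTregs, 8.83, 9.05 and 9.56 in KO cTregs, 10.27, 10.93, 10.87 and 10.61 in control eTregs, and 9.40, 9.09 and 9.13 in KO eTregs. KO cTreg 3 and control cTreg 1 came closest to each other, leaving a gap of 0.40. The difference was -1.46 in eTregs (SE 0.18, 2.76-fold lower) and -1.08 in cTregs (SE 0.18, 2.12-fold lower). Its SD within groups was 0.27, larger than in 85.0% of all transcript clusters, whereas that of *Tmem181a* (0.10) and *Tmem181b-ps* (0.11) was among the lowest (percentiles 7.0 and 8.4).

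Within groups, deviations of the 3 copies were compared array by array. *Tmem181a* and *Tmem181b-ps* deviated from their group means in the same direction in 12 of 14 arrays, *Tmem181b-ps* and *Tmem181c-ps* in 11, and *Tmem181a* and *Tmem181c-ps* in 9. Probes of near-identical copies can cross-hybridise, and whether the 3 rows read separate RNAs was not tested.

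**Figure D1:**
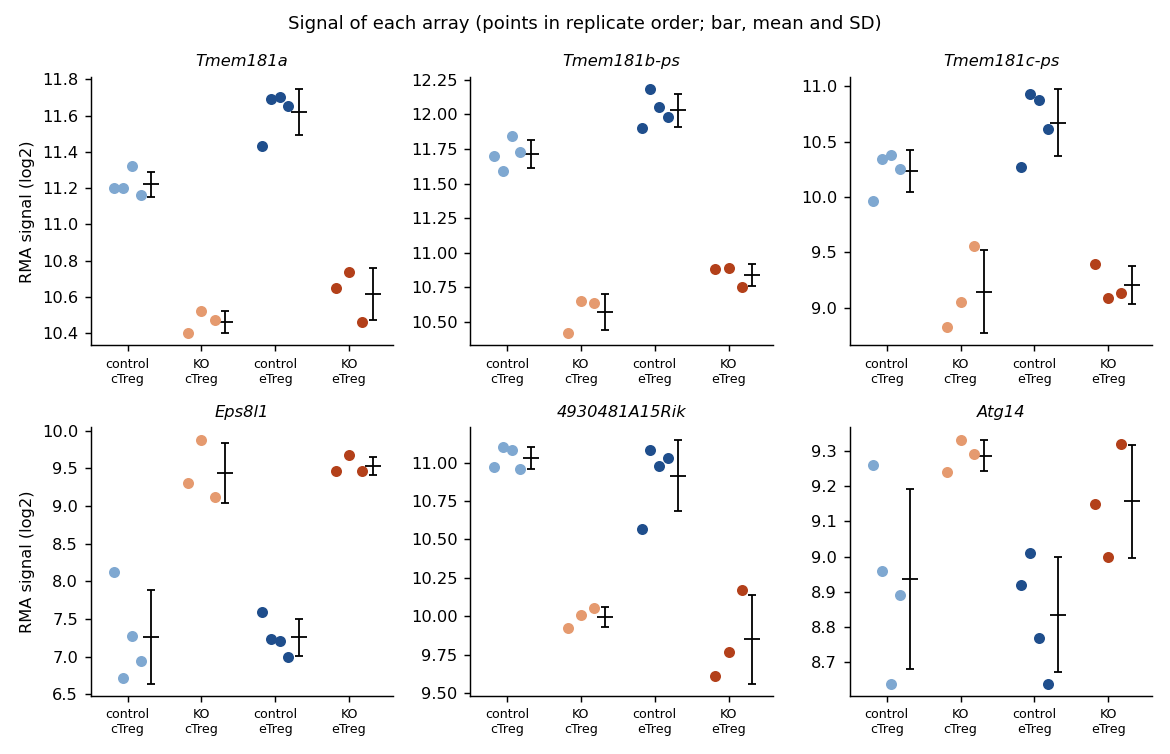
RMA signal (log2, vertical axis, which does not start at 0) of the 5 genes and of *Atg14* in each of the 14 arrays, with points in replicate order and a bar for the group mean and SD. For the 5 genes the 6 KO arrays do not overlap the 8 control arrays, with *Eps8l1* higher and the other genes lower under the KO label, whereas *Atg14* overlaps.

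*Eps8l1* was the only one of the 5 genes that was higher under the KO label. Control cTregs read 8.12, 6.71, 7.27 and 6.94 and control eTregs 7.59, 7.23, 7.21 and 6.99, against 9.31, 9.88 and 9.12 in KO cTregs and 9.46, 9.67 and 9.46 in KO eTregs. The lowest KO array exceeded the highest control array, control cTreg 1, by 1.00. The difference was 2.27 in eTregs (SE 0.26, 4.83-fold higher) and 2.18 in cTregs (SE 0.26, 4.52-fold higher). All 8 control values of *Eps8l1* lay below the median of the negative control probe sets of their own array and above that of its background probes (7.92 to 8.54 and 6.00 to 6.30 over the 14 arrays), whereas 0 of 6 KO values lay below the negative control median. The folds are therefore ratios against a control signal near the floor of the array and not ratios of RNA amounts. Its SD within groups, 0.41, exceeded that of 96.8% of clusters.

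*4930481A15Rik* was read at 10.97, 11.10, 11.08 and 10.96 in control cTregs and at 9.92, 10.01 and 10.05 in KO cTregs. In eTregs the controls read 10.57, 11.08, 10.98 and 11.03 and the KO arrays 9.61, 9.77 and 10.17. Control eTreg 1 was the lowest control and KO eTreg 3 the highest KO array, and a gap of 0.41 remained. The difference was -1.07 in eTregs (SE 0.14, 2.09-fold lower) and -1.04 in cTregs (SE 0.14, 2.05-fold lower).

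A change of 0.5 or more in the same direction with an adjusted P below 0.05 in both genotype contrasts was met by 8 of 22203 clusters (0.036%), the 5 genes and *Slfn8*, *Slfn9* and *Rab6b*, which were not among the genes chosen. Just inside this limit lay *Tmem181c-ps* (-1.46 in eTregs and -1.08 in cTregs) and *Rab6b* (-1.11 and -1.17). Next outside it, among clusters with a change of 0.5 or more in the same direction, were *Mtmr9* (0.60 and 0.64) and *Masp2* (1.34 and 1.1). The larger limma adjusted P of both contrasts was 0.0991 for *Mtmr9* and 0.218 for *Masp2*. Separation of all 6 KO arrays from all 8 control arrays occurred in 32 clusters (0.144%), the 5 genes included. As the genotype contrasts chose the genes, nothing is read from these shares.

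**Figure D2:**
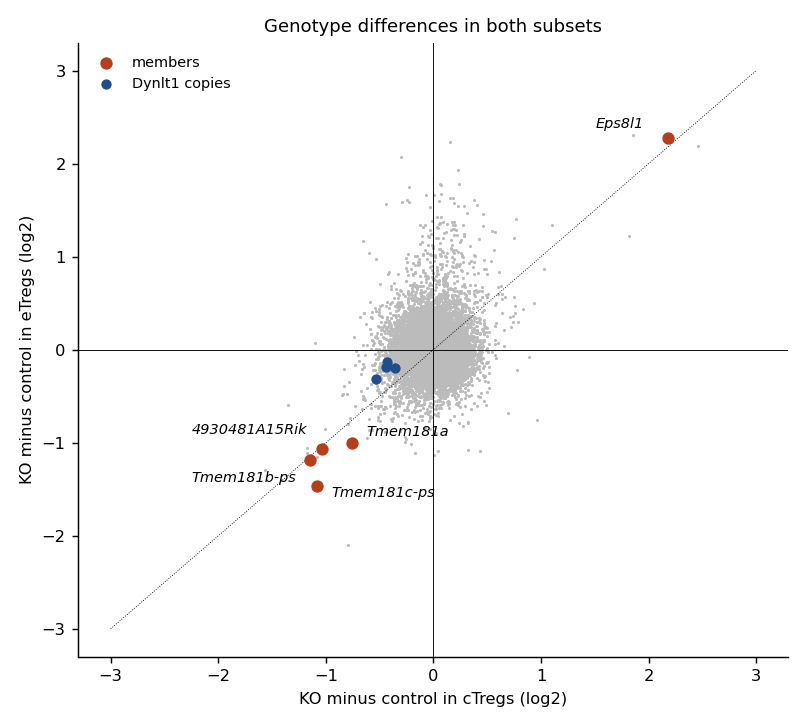
KO minus control difference (log2) in cTregs (horizontal axis) and eTregs (vertical axis) for each transcript cluster (grey), the 5 genes (red) and the 4 Dynlt1 copies that lie among the Tmem181 copies (blue), with a dotted line of equal difference. *Eps8l1* lies at 2.18 and 2.27, and the 4 other genes lie between -0.76 and -1.15 in cTregs and between -1.0 and -1.46 in eTregs.

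How far each genotype difference depended on the subset was measured as the eTreg difference minus the cTreg difference, given as a value with its 95% interval and not called, since both differences had entered the choice. It was -0.24 for *Tmem181a* (-0.55 to 0.07), -0.04 for *Tmem181b-ps* (-0.36 to 0.27), -0.38 for *Tmem181c-ps* (-0.93 to 0.17), 0.09 for *Eps8l1* (-0.69 to 0.88) and -0.03 for *4930481A15Rik* (-0.45 to 0.39). Each interval includes 0. Those of *Tmem181a* and *Tmem181c-ps* reach beyond 0.5 on one side, and that of *Eps8l1* reaches beyond 0.5 on both sides. The value of *Eps8l1* rests on control signals near the floor of the array.

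The difference between the subsets themselves was not the value used to choose the genes, and it was tested (limma, two-sided, adjusted over 22203 clusters). The choice nevertheless rested on the same arrays and the same estimate of spread within groups. These subset tests, and the shares of all clusters set beside them, are therefore not independent of the choice. *Tmem181a* was higher in eTregs than in cTregs among controls, by 0.40 (SE 0.095, 1.32-fold, adjusted P = 0.0262). All 4 control eTreg arrays lay above all 4 control cTreg arrays, a separation found in either direction in 11.1% of clusters. It was the only one of the 5 genes with an adjusted P below 0.05 in this contrast, where 3.58% of all clusters had one, and its change was below 0.5. At a change of 0.5 or more with an adjusted P below 0.05, 0 of the 5 genes passed in controls (3.06% of all clusters) and 0 of 5 in KO arrays (2.35%). The call was lost (adjusted P 0.0709 to 0.0942) when any of control cTreg 1, 2 or 4 or control eTreg 2, 3 or 4 was left out. In the same contrast 4 of 8 macrophage genes and 2 of 6 dendritic cell genes passed the study threshold upward, as 4.72% of all clusters did in either direction. Of 5 CD8 and NK genes, 1 passed upward and 2 downward, and no B cell, erythroid or epithelial gene passed. The part of other cells in the subset difference of *Tmem181a* was not tested.

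In this fit, which does not pair arrays, the pseudogene copies did not pass after adjustment in controls. With the replicate number as a block *Tmem181c-ps* did (limma adjusted P = 0.024) and *Tmem181b-ps* did not (0.122). The sources do not say whether these numbers pair samples. *Tmem181b-ps* differed by 0.32 (SE 0.097, adjusted P = 0.103), again without overlap between the subsets, and *Tmem181c-ps* by 0.44 (SE 0.17, adjusted P = 0.235) with overlap. Of the 5 genes, the 3 Tmem181 rows had an unadjusted P below 0.05 in controls, as had 12.8% of all clusters. *Eps8l1*, whose control signals lay below the negative control medians so that a difference between subsets may not show (-0.00, 95% interval -0.52 to 0.51, adjusted P = 0.999) and *4930481A15Rik* (-0.11, -0.39 to 0.16, adjusted P = 0.852) did not pass.

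Among KO arrays none of the 5 genes passed at an adjusted P below 0.05 (2.43% of all clusters did), and 1 had an unadjusted P below 0.05 (13.8% of all clusters). That gene was *Tmem181b-ps*, with 0.27 more in eTregs (0.03 to 0.51, adjusted P = 0.276) and no overlap between the subsets (14% of clusters). The differences of the other genes were 0.15 for *Tmem181a* (-0.08 to 0.39, adjusted P = 0.588), 0.06 for *Tmem181c-ps* (-0.35 to 0.47, adjusted P = 0.936), 0.09 for *Eps8l1* (-0.50 to 0.69, adjusted P = 0.930) and -0.14 for *4930481A15Rik* (-0.46 to 0.17, adjusted P = 0.732). Without KO eTreg 1 the values of the 5 genes, in the order *Tmem181a*, *Tmem181b-ps*, *Tmem181c-ps*, *Eps8l1* and *4930481A15Rik*, were 0.14, 0.25, -0.04, 0.13 and -0.02, and none passed. The order of the group means of *Tmem181a* was control eTreg (11.62), control cTreg (11.22), KO eTreg (10.62) and KO cTreg (10.46), and the last pair overlapped. For *Eps8l1* both control groups had a mean of 7.26 and the KO groups had means of 9.44 in cTregs and 9.53 in eTregs, so that each neighbouring pair within a label overlapped. *Tmem181b-ps* had the same order as *Tmem181a* (12.03, 11.71, 10.84 and 10.57) and no neighbouring pair overlapped, whereas for *Tmem181c-ps* (10.67, 10.23, 9.21 and 9.15) the subsets overlapped within each label. *4930481A15Rik* ran in the other order, with 11.03 in control cTregs, 10.91 in control eTregs, 9.99 in KO cTregs and 9.85 in KO eTregs, and the subsets overlapped within each label.

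**Figure D3:**
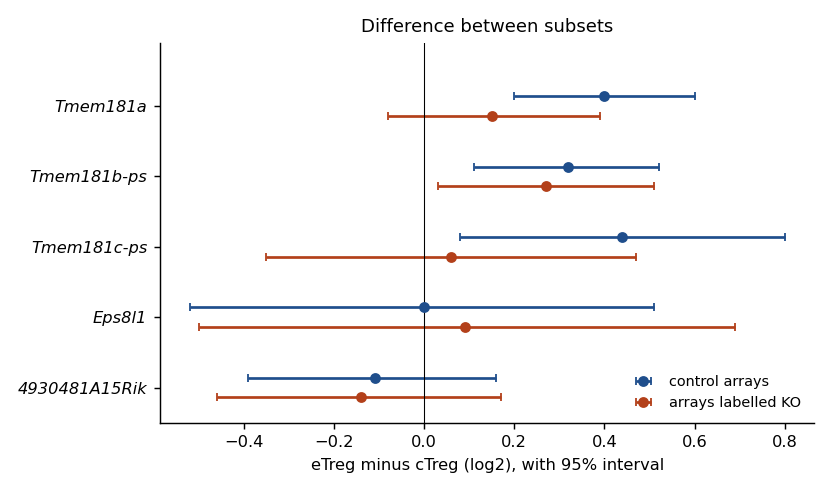
eTreg minus cTreg difference (log2, points) with its 95% interval (lines) for the 5 genes, in control arrays (blue) and KO arrays (red). The control intervals of the 3 Tmem181 rows lie above 0, from 0.20 to 0.60 for *Tmem181a*, and those of *Eps8l1* and *4930481A15Rik* include 0.

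Because the 3 Tmem181 rows lie side by side on chromosome 17, the 10 nearest measured genes on each side of every gene were examined, in RefSeq order. From one side to the other, the run reads *Tulp4*, *Tmem181a*, *Dynlt1a*, *Dynlt1b*, *Tmem181b-ps*, *Dynlt1c*, *Tmem181c-ps*, *Dynlt1f* and *Sytl3*, so that Tmem181 copies alternate with copies of *Dynlt1*, a light chain of the dynein motor. In RefSeq the span of *Tmem181a* overlaps that of *Dynlt1a*, and that of *Tmem181b-ps* overlaps *Dynlt1b*. The Dynlt1 copies were singled out after their values were seen. Probes of such copies can also cross-hybridise, and whether their rows are separate readings was not tested. Counts of these rows set beside shares of all clusters carry this limit.

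In cTregs each of the 4 Dynlt1 copies lay lower under the KO label without overlap between the arrays, which 2.35% of all clusters did. *Dynlt1b*, the copy with the largest difference, read 11.49, 11.70, 11.45 and 11.63 in controls and 10.95, 11.06 and 11.07 in KO arrays, a difference of -0.54 (limma adjusted P = 1.00). *Dynlt1a* differed by -0.36, *Dynlt1c* by -0.44 and *Dynlt1f* by -0.43. All 4 had an unadjusted P below 0.05, as had 2.03% of all clusters in the downward direction, and none passed after adjustment over all clusters (adjusted P 0.791 to 1.00).

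In eTregs the differences of the Dynlt1 copies were smaller, at -0.20, -0.31, -0.18 and -0.13 in chromosomal order from *Dynlt1a* to *Dynlt1f*, and 1 of 4 (*Dynlt1b*, limma adjusted P = 0.617) had an unadjusted P below 0.05, against 3.69% of clusters downward. The arrays of *Dynlt1a* did not overlap (3.84% of clusters downward), and those of the other 3 copies did. KO eTreg 1 was the lowest KO eTreg array for every copy. Without it the difference of *Dynlt1a* was -0.12, that of *Dynlt1b* -0.08, that of *Dynlt1c* -0.04 and that of *Dynlt1f* 0.00. The Tmem181 rows did not share this pattern, since KO eTreg 1 read 10.65, 10.88 and 9.40 in *Tmem181a*, *Tmem181b-ps* and *Tmem181c-ps* and was not the lowest KO eTreg array for any of them.

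**Figure D4:**
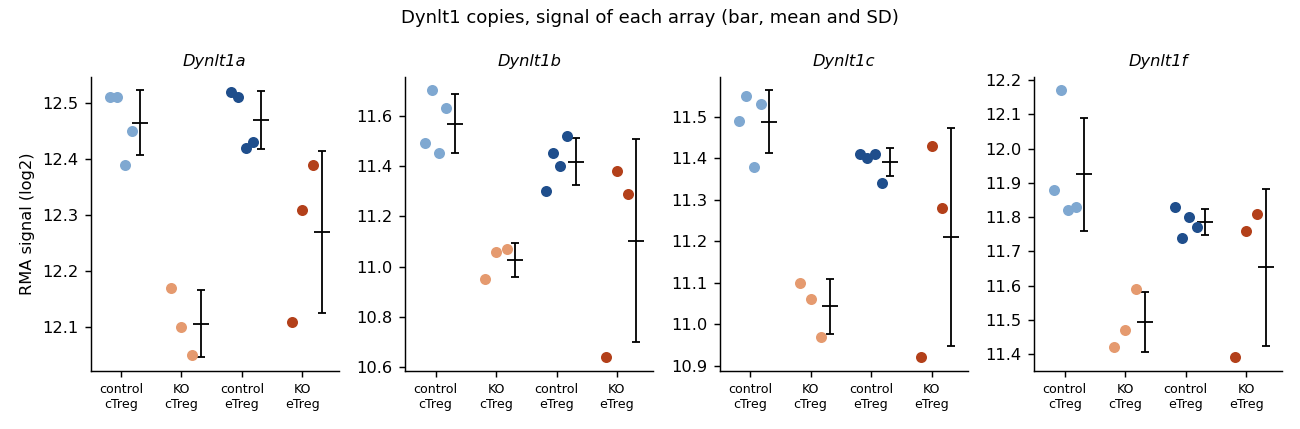
RMA signal (log2, vertical axis, which does not start at 0) of the 4 Dynlt1 copies in each of the 14 arrays, with points in replicate order and a bar for the group mean and SD. In cTregs the KO arrays lie below the controls for each copy, and in eTregs KO eTreg 1 lies lowest while the other KO arrays lie closer to the controls.

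Beyond the Dynlt1 copies, the 19 other measured neighbours on chromosome 17 had a median genotype difference of 0.01 in cTregs and 0.02 in eTregs, and none had an unadjusted P below 0.05 in either subset. The lowest differences among them were -0.35 in cTregs and -0.36 in eTregs, both of *Rps6ka2*, a ribosomal S6 kinase.

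Around *Eps8l1*, 1 of 20 neighbours passed the study threshold in eTregs and 0 of 20 in cTregs, where 2.72% and 0.576% of all clusters did. The neighbour was *Lair1*, an inhibitory receptor of leukocytes, which was 1.03 higher in KO eTregs (limma adjusted P = 0.0774) and differed by -0.09 in cTregs. The span of *Eps8l1* overlaps those of *Rdh13* and of the noncoding *D630041G03Rik*. *D630041G03Rik* differed by 0.29 in eTregs (limma unadjusted P = 0.0674, adjusted P = 0.663). In cTregs it differed by 0.47 (limma unadjusted P = 0.00638, adjusted P = 1.00). *Rdh13* differed by 0.11 in eTregs and -0.15 in cTregs. Around *4930481A15Rik* none of 20 neighbours passed in either subset, and *Drap1*, whose span overlaps it, differed by -0.03 in eTregs and -0.10 in cTregs. *Ctsw*, a protease of cytotoxic lymphocytes, had the largest upward difference there (0.40 in eTregs and 0.34 in cTregs).

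**Figure D5:**
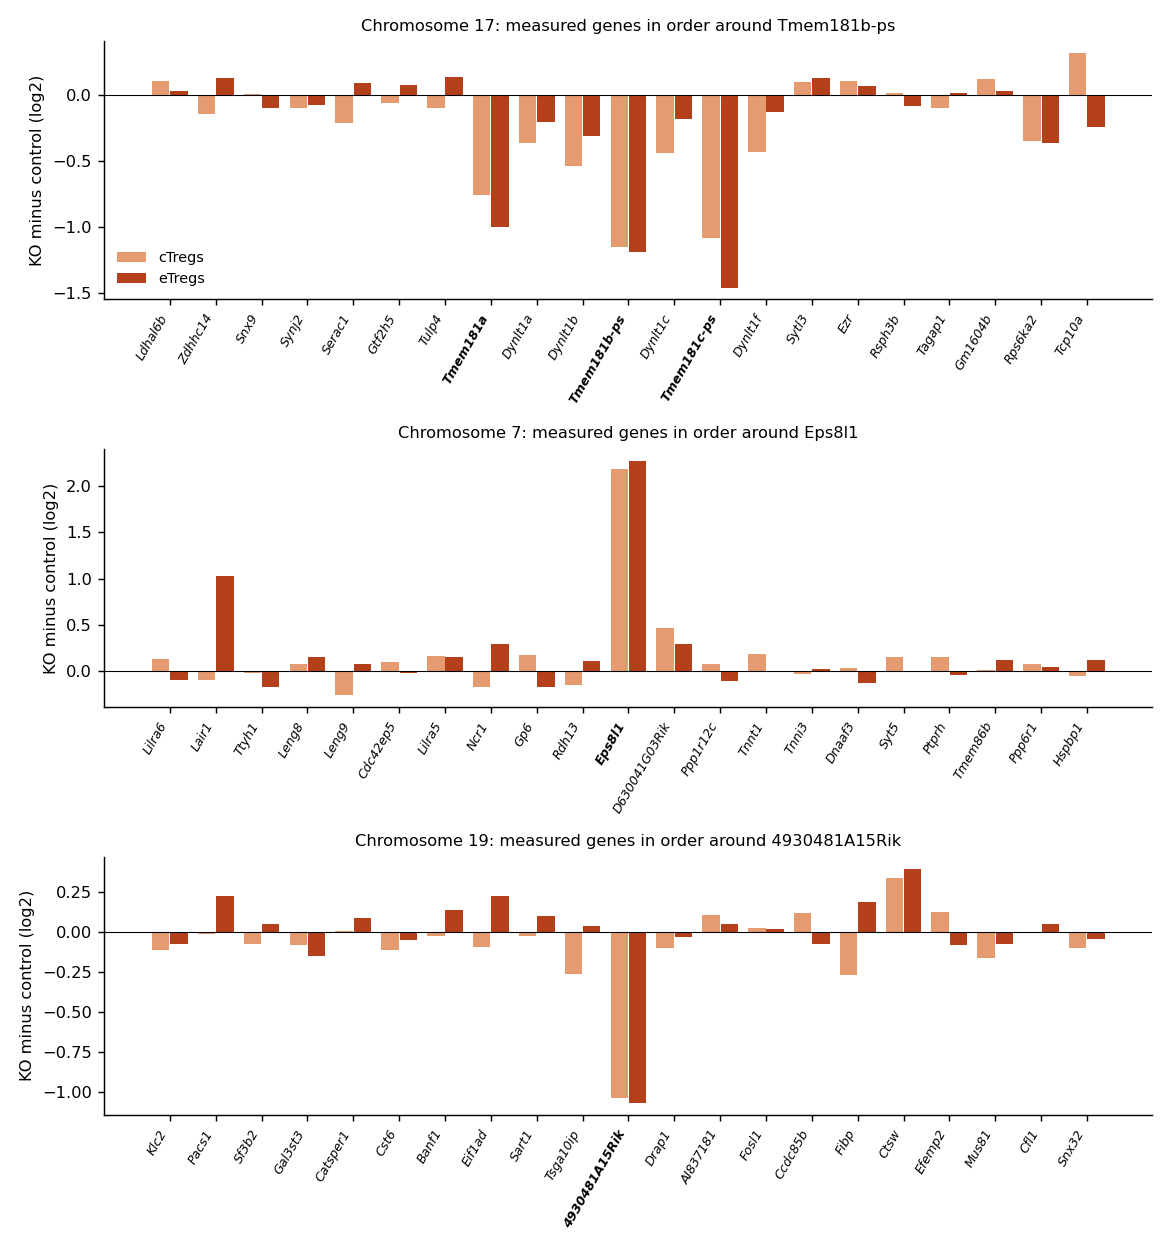
KO minus control difference (log2, bars from 0) in cTregs (light) and eTregs (dark) for the 10 measured genes on each side of *Tmem181b-ps*, *Eps8l1* and *4930481A15Rik*, in chromosomal order and not to scale in distance, with the 5 genes in bold. The bars of the 3 Tmem181 rows reach -0.76 to -1.46 with lower Dynlt1 copies between them, and *Eps8l1* and *4930481A15Rik* have the longest bars of their panels, with *Lair1* (1.03 in eTregs) next on chromosome 7.

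The RefSeq promoter table (250 bases before to 50 after each annotated start, GRCm38.p6) held 2 promoters of *Tmem181a*, 3 of *Eps8l1* and 1 of *4930481A15Rik*. The pair of promoters that resembled each other most belonged to *Eps8l1* and *4930481A15Rik*, genes on different chromosomes that differed in opposite directions under the KO label. They are shown for that shared stretch, with aligned identical runs of 12 or more bases in capitals, both on the plus strand, *Eps8l1* at chr7:4460447-4460746 and *4930481A15Rik* at chr19:5406565-5406864.
Eps8l1: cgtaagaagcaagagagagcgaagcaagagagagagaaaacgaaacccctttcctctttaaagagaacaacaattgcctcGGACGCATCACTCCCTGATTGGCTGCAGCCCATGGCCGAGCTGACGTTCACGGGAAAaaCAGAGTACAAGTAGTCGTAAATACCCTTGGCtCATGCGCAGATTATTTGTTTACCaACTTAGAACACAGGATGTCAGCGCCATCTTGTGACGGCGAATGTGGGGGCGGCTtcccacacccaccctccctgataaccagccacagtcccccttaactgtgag
4930481A15Rik: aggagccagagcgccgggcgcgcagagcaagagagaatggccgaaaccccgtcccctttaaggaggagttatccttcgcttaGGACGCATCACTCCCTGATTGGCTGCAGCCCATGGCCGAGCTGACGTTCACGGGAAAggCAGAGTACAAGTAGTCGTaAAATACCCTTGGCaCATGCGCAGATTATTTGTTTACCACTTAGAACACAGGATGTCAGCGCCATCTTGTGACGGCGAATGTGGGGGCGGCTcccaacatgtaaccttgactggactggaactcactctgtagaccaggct

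In a global alignment 244 of 300 bases (81.3%) were identical, and 165 bases lay in 5 runs of 12 or more, the longest of 57 bases. The other pairs between genes reached 48.7% to 53.7% identity with no run longer than 8 bases. Such letters resemble the long terminal repeat of intracisternal A-particle elements, a family of mouse retrotransposons, although no repeat annotation was used here. A stretch of 20 bases common to both promoters occurred in 26 of 32851 promoters (0.0791%), of 25 genes. Of these genes only *Eps8l1* and *4930481A15Rik* were measured among the transcript clusters tested, so no further gene with this stretch could be compared. The promoter shown for *Eps8l1* is the most upstream of its 3, and the array does not tell from which start its transcripts came.

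Of 6 short motifs searched on either strand in the same windows, TGTTTAC, the letters of a forkhead site, was found in both printed promoters and in 3.6% of all promoters, and it lies within the shared letters. CACGTG, an E-box, was found in 1 of the 2 *Tmem181a* promoters (7.2% of all promoters) and GGGCGG, a GC box, in all 6 promoters of the 3 genes (35.7% of all). TGACTCA (5.2%), CCGGAAG (8.9%) and TATAAA (13.6%) were found in none of the 6.

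Genes whose profiles over the 14 arrays were most like those of the 5 genes were named by the root mean square difference of profiles centred on their own mean, as a description. The nearest to *Tmem181a* was *Tmem181b-ps* (0.16), followed by *Pgm2* and *Tmem260* (0.26 each), and the nearest to *Tmem181b-ps* were *Tmem181a* (0.16), *Tmem181c-ps* (0.21) and *Slfn9* (0.26). *Tmem181c-ps* was nearest to *Tmem181b-ps* (0.21), *Tmem181a* (0.28) and *4930481A15Rik* (0.33). *Eps8l1* was nearest to *Slfn8* (0.29), with *3830403N18Rik* and *Masp2* (0.66 each) well behind, and *4930481A15Rik* to *Tmem181b-ps* (0.28), *Slfn9* (0.28) and *Tmem181a* (0.29). The spread of each profile about its own mean, on the same scale, was 0.47, 0.60, 0.69, 1.15 and 0.55 for *Tmem181a*, *Tmem181b-ps*, *Tmem181c-ps*, *Eps8l1* and *4930481A15Rik*. These points share the same arrays and the same genotype split.

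Relatives and partners of *Eps8l1* were examined with it. Of 15 measured genes of the Eps8 family, its partners and the growth factor receptor *Egfr*, 0 passed the study threshold in either genotype contrast, where 2.72% of all clusters passed in eTregs and 0.576% in cTregs, so that 0 is near the background. Their medians were -0.04 in eTregs and 0.06 in cTregs beside -0.022 and 0.016 over all clusters. *Eps8*, the founding member, differed by 0.13 and 0.11 in eTregs and cTregs, and *Eps8l2* by 0.29 and 0.08. *Abi2*, an adaptor of the WAVE actin-nucleation complex, was 0.87 higher in eTregs than in cTregs among controls (adjusted P = 0.00403). In KO arrays *Abi2* differed by 0.69 (adjusted P = 0.0632). It was the only one of the 15 past the study threshold in each subset contrast, which 4.72% of all clusters passed in controls and 5.81% in KO arrays.

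Among 7 GOLD-domain relatives of Tmem181, 0 passed in the genotype contrasts, again near the shares of all clusters (2.72% in eTregs and 0.576% in cTregs), with medians of -0.04 in eTregs and -0.06 in cTregs. The most negative was *Tmem87b* in eTregs (-0.36), and without KO eTreg 1 the count past the threshold there was 1. *Wls*, the carrier of Wnt proteins to the cell surface, was 0.94 higher in eTregs among controls (adjusted P = 0.00334). In KO arrays it differed by 0.60 (adjusted P = 0.136), and it was the only one of the 7 past the study threshold in each (4.72% and 5.81% of all clusters). In the KO arrays the count of GOLD-domain relatives past the threshold was 0 without KO eTreg 2 and 2 without KO eTreg 1.

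Other cells in the sort were set beside these values. The summed linear signal of the 8 macrophage genes was 3350 in KO eTreg 1, the lowest of the KO eTreg arrays, and reached 19700 in KO eTreg 2, against 4110 to 5980 in control eTregs. In cTregs the sums were 2690 to 3240 in KO arrays and 2480 to 2850 in controls. *Eps8l1* read 9.46 in KO eTreg 1, 9.67 in KO eTreg 2 and 9.46 in KO eTreg 3, and a relation to the sums was not tested. The B cell list and the CD8 and NK list were higher in all KO eTreg arrays than in all control eTreg arrays. The B cell sum was 1660 to 1860 (1410 to 1560 in controls) and the CD8 and NK sum 2560 to 3420 (1730 to 2510), with KO eTreg 1 the lowest KO array in each. The dendritic cell sum was 3800 to 10900 in KO eTregs, which overlapped the 3300 to 4040 of control eTregs. In KO cTregs it was 2590 to 3050, above the 2400 to 2550 of control cTregs. The part of these cells in the values of the 5 genes was not tested. The genotype differences of the 5 genes kept their sign when any array was left out, with ranges in eTregs of 2.18 to 2.38 for *Eps8l1*, -1.06 to -0.93 for *Tmem181a* and -1.22 to -0.95 for *4930481A15Rik*. The epithelial genes, a cell type that uses Eps8 proteins in microvilli, summed to 1630 to 2270 over all 14 arrays. In sorted cell RNA, fewer cells that express a gene and less RNA per cell cannot be told apart.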

How the data were processed

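RNA of 14 sorted Treg samples was labelled with the Whole Transcript Plus kit and hybridised to Clariom S mouse arrays. The authors summarised probes by RMA in Affymetrix Expression Console 1.1 and deposited log2 signals, so quantile normalisation and probe summary could not be varied here. Control entries (6640) and 3 clusters with a blank symbol were left out, and no signal filter was applied. Rows were matched by first gene symbol, 1 row for each of the 5 genes. Groups came from sample labels. A 4-group model was fitted over 22203 clusters with limma 3.58.1 (lmFit, eBayes, R 4.3.3), as the study used lmFit, and adjusted by Benjamini-Hochberg. *Atg14* was compared by exact permutation and in the same limma fit. Gene names, order and overlap came from RefSeq tables of GRCm38.p6; the build of the array annotation is not given in the sources used here, so positions are printed only for promoters. Promoters were aligned with Biopython 1.88. Named were the 5 genes, *Atg14*, list and neighbour genes past the study threshold, the 3 nearest profiles and clusters at the edge of the rule, plus others marked as singled out or given as examples. The fit was tested on simulated data. The members and lists were chosen with earlier results of these data known. The methods count the samples as chimera mice, 4 control and 3 KO, and do not say whether same-numbered cTreg and eTreg arrays share a mouse. The number of arrays limits precision. Alternatives varied scaling, low-signal filter, samples in the fit, array weights, variance prior, replicate block and arrays.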

Additional observations from a re-analysis of the deposited data

Results flagged for a closer look

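*Dynlt1c* in control eTreg 4 (log2 signal 11.34) lay apart from the other 3 control eTreg arrays (11.40 to 11.41) by a gap ratio of 0.857, above Dixon's 95% critical value for 4 arrays. It was the only one of 20 groups of 4 arrays tested, and about 1 in 20 is expected to exceed it by chance.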

How the results depend on the processing

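The genotype differences of the 5 genes kept their direction under every alternative run and moved by less than the SD within groups, and so did those of *Atg14*. No second row of any of the 5 symbols exists, so that alternative gave no value. The subset difference of *Tmem181a* in controls was 0.35 (adjusted P = 0.0857) after subtracting array medians, which left 0 of 5 genes past the adjusted threshold in place of 1, and 0.37 to 0.46 when single arrays were left out (0 or 1 genes). With array weights 3 of 5 genes passed, *Tmem181b-ps* (0.31) and *Tmem181c-ps* (0.44) included, and clusters with an adjusted P below 0.05 numbered 1682 in controls and 1031 in KO arrays (795 and 540 without weights), with 1 GOLD-domain relative past the study threshold in the eTreg genotype contrast. Fitting only the groups of a contrast left 133 clusters in the KO subset contrast, 4 clusters in place of 8 past the adjusted threshold in both genotype contrasts, and 3 of the 5 genes among them.

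Replicate numbers occur in both subsets. Deviations of same-numbered arrays correlated at 0.222, 0.146, 0.102 and 0.071 in controls and 0.303, 0.29 and 0.044 in KO arrays, and 7 of 8 control and 5 of 6 KO arrays correlated best with their own number in the other subset, which is a hint from the data and not the design. The numbers were not taken to pair samples. With the replicate number as a block, *Tmem181c-ps* differed between subsets by 0.44 in controls (adjusted P = 0.024), 2 of 5 genes passed, and 1300 and 112 clusters passed in controls and KO arrays. With 5 neighbours on each side 0 genes near *Eps8l1* passed in eTregs, and by Pearson ranking 1 of the 3 nearest genes of *4930481A15Rik* stayed.

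When single arrays were left out, clusters past the adjusted threshold in both genotype contrasts numbered 3 to 9, the 5 genes among them 2 to 5 (2 without KO cTreg 1, KO cTreg 2 or control cTreg 3, and 3 without KO cTreg 3), and clusters that separated all KO from all control arrays 36 to 65. Clusters past the study threshold ranged from 564 to 1104 in the eTreg genotype contrast (most without KO eTreg 1), 125 to 314 in the cTreg contrast (most without KO cTreg 3, and 220 without KO cTreg 2) and 1158 to 1986 in the KO subset contrast (most without KO eTreg 1), where those with an adjusted P below 0.05 ranged from 219 to 1302. Clusters without overlap ranged from 1521 to 5649 in eTregs and 1121 to 3295 in cTregs, where fewer arrays alone raise such counts. GOLD-domain relatives past the study threshold ranged from 0 to 1 in the eTreg genotype contrast and 0 to 2 in the KO subset contrast, and Eps8 relatives and partners there from 1 to 2. The causes were not tested. Array signal limits *Eps8l1*, whose 8 control values lay below the negative control medians of their arrays.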
